A study of Mus musculus with 22 samples.

Results

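Expression of 7 GABA-A receptor subunit genes was examined in total RNA from the right brain hemisphere of mice ranked by the tube test, in which cage mates meet head-on in a narrow tube and the one that pushes the other back wins. The members were the rows of the deposited count tables with the symbols Gabra2, Gabra3, Gabra4, Gabra5, Gabrb1, Gabrb2 and Gabrd, 7 of 24421 genes in each table, and all 7 passed the filter on low counts. All mice were of 1 inbred strain, which the sample labels spell C57B6/J OlaHsd. The methods of the paper spell the strain name differently. The mice were housed 4 to a cage and took the tube test at 10 to 12 weeks of age. The 4 groups were 7 dominant males, 7 submissive males, 4 dominant females and 4 submissive females, 1 mouse of each rank from each of 7 male and 4 female cages, and cages carry the number of their mice. By the methods, females found intermediate in rank were put into new groups of 4 and ranked again a week later. The female cages counted here may include such groups. Males and females form separate tables with library names of different sequencing projects, so sex and project cannot be told apart. A hemisphere mixes many regions and cell types, and fewer cells of a type and less RNA per cell cannot be told apart in such bulk samples.

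GABA-A receptors are chloride channels opened by the inhibitory transmitter GABA, each a pentamer that usually combines alpha and beta subunits with a gamma or a delta subunit. The alpha subunit shapes where the receptor sits and which drugs bind it: receptors with alpha2 are common on the axon initial segment, alpha5 is rich in hippocampus, and alpha4 pairs with delta in extrasynaptic receptors that carry a tonic current in thalamus, dentate gyrus and striatum. The beta subunits help form the GABA binding site with alpha and take part in assembly and anchoring. Alpha3 is found in monoaminergic nuclei, thalamic reticular nucleus and cortex. The alpha6 subunit of cerebellar granule cells, Gabra6, is not among the members.

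Of the members, 3 lie in a subunit cluster on chromosome 5 of mm10 (GRCm38). Gabra2 (ENSMUSG00000000560.9) occupies chr5:70961057-71095849 and Gabra4 (ENSMUSG00000029211.11) chr5:71569734-71658308, both on the minus strand, and Gabrb1 (ENSMUSG00000029212.11) occupies chr5:71700016-72137244 on the plus strand, so that the starts of Gabra4 and Gabrb1 face each other. Gabra3 (ENSMUSG00000031343.13) is at chrX:72432676-72656246, Gabra5 (ENSMUSG00000055078.7) at chr7:57407669-57510009 and Gabrd (ENSMUSG00000029054.8) at chr4:155384979-155398069, all minus, and Gabrb2 (ENSMUSG00000007653.12) is at chr11:42419757-42632591 on the plus strand. The counted rows are exonic, with 9 or 10 exons each. They covered 94.9% of the exon bases that GENCODE gives Gabra3, and 89.8% for Gabra5, 67.5% for Gabra4, 65.3% for Gabrd, 62.7% for Gabrb2, 31.3% for Gabra2 and 13.4% for Gabrb1. Reads over the other GENCODE exon bases of Gabrb1 and Gabra2 were therefore not counted. Of the counted bases of Gabra5, 148 also belong to Gm9962 on the other strand, and 46 of Gabra4 lie in a GENCODE exon of Gabrb1 on the other strand. Whether counting used the strand is not given in the sources used here, and reads over those bases cannot be told apart.

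RefSeq promoter windows of 300 bases around a transcription start, on GRCm38.p6, were found for 6 of the 7 members. The 4 below belong to the cluster genes that differed between the tables and to Gabra5, whose level followed that of Gabra4 in males. Capitals mark matches, on either strand, to a GC box (GGGCGG) or a CAAT box (CCAAT). Each is written 5′ to 3′ on the strand of its gene.
Gabra2, chr5:71095800-71096099, minus strand: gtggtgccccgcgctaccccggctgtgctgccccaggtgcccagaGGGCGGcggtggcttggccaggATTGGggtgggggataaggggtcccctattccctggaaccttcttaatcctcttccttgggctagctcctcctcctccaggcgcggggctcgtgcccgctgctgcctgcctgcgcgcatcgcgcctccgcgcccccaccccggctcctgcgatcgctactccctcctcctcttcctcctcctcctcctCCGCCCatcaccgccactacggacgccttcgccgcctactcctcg
Gabra4, chr5:71658259-71658558, minus strand: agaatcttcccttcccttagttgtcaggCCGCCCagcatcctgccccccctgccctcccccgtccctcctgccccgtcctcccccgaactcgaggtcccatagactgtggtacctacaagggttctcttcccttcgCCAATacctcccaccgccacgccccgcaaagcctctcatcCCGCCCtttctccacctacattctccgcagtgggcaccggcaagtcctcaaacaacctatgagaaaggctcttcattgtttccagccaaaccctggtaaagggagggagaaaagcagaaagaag
Gabrb1, chr5:71699682-71699981, plus strand: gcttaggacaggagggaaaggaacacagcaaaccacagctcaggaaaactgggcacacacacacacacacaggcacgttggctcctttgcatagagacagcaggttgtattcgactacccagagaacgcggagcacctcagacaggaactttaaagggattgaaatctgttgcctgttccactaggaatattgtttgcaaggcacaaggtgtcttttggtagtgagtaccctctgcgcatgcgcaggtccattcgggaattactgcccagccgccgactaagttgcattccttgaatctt
Gabra5, chr7:57510010-57510309, minus strand: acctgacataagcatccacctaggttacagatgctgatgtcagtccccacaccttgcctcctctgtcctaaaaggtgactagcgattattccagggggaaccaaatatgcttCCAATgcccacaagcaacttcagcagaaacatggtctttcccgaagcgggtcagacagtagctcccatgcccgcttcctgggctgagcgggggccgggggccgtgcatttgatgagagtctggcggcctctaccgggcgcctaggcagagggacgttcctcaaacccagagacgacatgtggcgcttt
The Gabra2 and the Gabra4 window each held 2 GC boxes and 1 CAAT box, the Gabra5 window held 1 CAAT box, and the Gabrb1 window printed, the one next to the counted exons, held none of the motifs searched. Of all 32851 windows, 35.66% held a GC box and 37.41% a CAAT box. The other letters searched were TATAAA, the TATA box, in 13.62% of windows, TGACGTCA, the CRE, in 1.79%, and GCGNGGGCG, an EGR motif, in 5.55%, and none of them was in these 4 windows. Motifs may overlap one another, and a match describes letters, not binding. Of the windows printed, that of Gabra2 was 70.0% G and C with 25 CpG sites, against 58.7% and 12 for Gabra4, 56.7% and 13 for Gabra5 and 50.3% and 9 for Gabrb1, and the median window had 52.7% and 7. RefSeq gives Gabrb1 another window, at chr5:71657671-71657970 within Gabra4, with 66.0% G and C, 25 CpG sites and 2 EGR motifs.

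Between 12403943 and 16488762 reads were counted per mouse. Dominant male 1 stood apart in cerebellar RNA, with 7 counts of Gabra6 and 0 of Pcp2, a Purkinje cell marker, while the other 13 males had at least 254 counts of Pcp2. Its summed level of 6 cerebellar markers was 17.4 CPM, against a male median of 581. The members' fold changes by rank in males, those called between the tables, the Gabra5 cage test and the male pairs that passed 0.05 are also given without it or its cage. The neuronal markers were present in every mouse, with a summed level of 3591 to 4453 CPM over 5 genes.

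Each member was well covered, from 632 counts of Gabrb1 to 11050 of Gabrb2 in a mouse. To compare genes, CPM (a gene's counts relative to the library's total, with TMM factors over all 22 mice) was divided by the counted exon length in kilobases. In males Gabrb2, a widespread synaptic beta subunit, was highest at 84.9 ± 2.86 CPM per kilobase (SD, n = 14). Gabrd followed with 43.5 ± 3.54 and Gabra4 with 43.2 ± 2.37, and then Gabra2 with 34.4 ± 2.21, Gabrb1 with 31.5 ± 2.30, Gabra3 with 27.8 ± 2.31 and Gabra5 with 26.4 ± 2.14. Only Gabrb2 and Gabrd, and Gabra4 and Gabra2, did not overlap as neighbours in this order. In females (n = 8) the length-scaled levels were 87.1 ± 3.23 for Gabrb2, 46.8 ± 2.63 for Gabra4, 45.4 ± 2.53 for Gabrd, 39.0 ± 2.32 for Gabra2, 28.7 ± 1.18 for Gabra3, 26.2 ± 1.54 for Gabra5 and 24.3 ± 1.67 for Gabrb1. There the pairs without overlap were Gabrb2 and Gabra4, and Gabra2 and Gabra3. Gabrb1 thus stood in place 5 in males and 7 in females. Gabrb2 made up 29.1% of the summed length-scaled level of the 7 members in males and 29.3% in females, and Gabrb1 made up 10.8% and 8.18%. On coding length in place of counted length, Gabrb2 was still first in both sexes and Gabrb1 was last in both, but Gabrd went to place 5 in both, from 2 in males and 3 in females, and Gabra3 went from 6 to 3 in males, so the order below Gabrb2 depends on the length used.

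**Figure D1:**
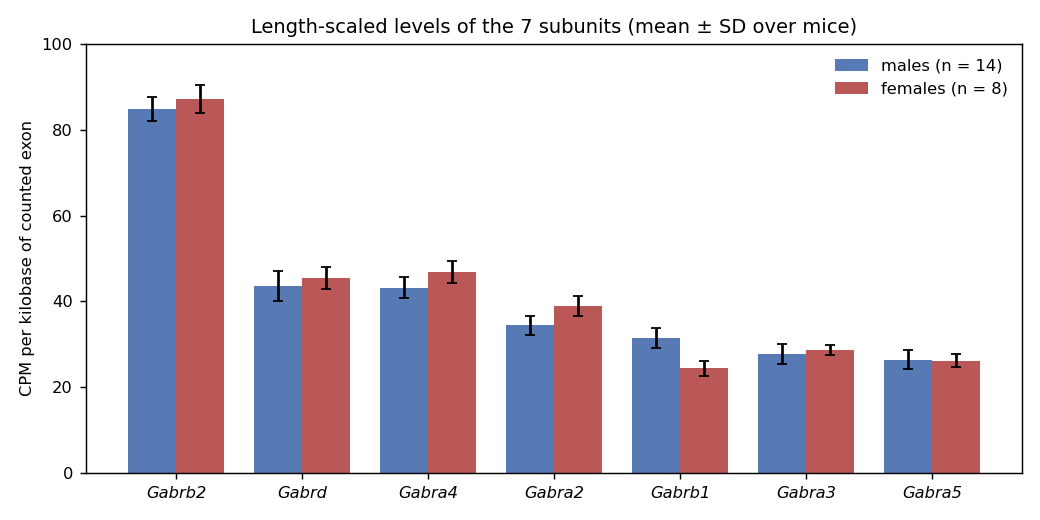
Mean level of each subunit gene in CPM per kilobase of counted exon (bars, axis from 0) with the SD over 14 males (blue) and 8 females (red). Gabrb2 is highest in both, at 84.9 in males and 87.1 in females, and Gabrb1 has 31.5 in males and 24.3 in females.

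Of the other GABA-A subunit genes, 8 of 12 passed the filter. On the same length scale Gabra6 ran from 41.4 to 70.1 CPM per kilobase in females and reached 73.9 in males, with 0.20 in dominant male 1. Gabrg1, Gabrg3, Gabrq and Gabrr2 were below every member, at 18.01 CPM per kilobase or less in each mouse.

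Whether rank goes with the level of these subunits was asked first in males. In each alpha subunit the 2 groups overlapped, as they did in nearly all genes, since 0.0131% of the 15233 genes tested over all mice had male ranks that did not overlap. Gabra2 ran from 73.5 CPM over a median of 82.5 to 91.9 in dominant males and from 78.6 over 80.4 to 87.9 in submissive males, a log2 fold change (dominant over submissive) of 0.011 (SE 0.0498). Gabra3 ran from 94.8 over 99.3 to 122 CPM in dominant and from 96.8 over 104 to 109.9 in submissive males, a log2 fold change of 0.021 (SE 0.0589). The 2 highest Gabra3 values, 120.5 and 121.6 CPM, were those of dominant males 1 and 5. Gabra4, of the extrasynaptic receptors, ran from 165 over 181 to 194 CPM and from 161 over 174 to 190.3, with 0.024 (SE 0.0434). Gabra5, the hippocampal alpha subunit, ran from 61.6 over 73.8 to 79.0 CPM and from 61.9 over 69.5 to 77.3, with 0.051 (SE 0.0583), the highest fold change of the 7.

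The beta and delta subunits also overlapped between male ranks. Gabrb1 ran from 48.7 over 58.2 to 65.8 CPM in dominant and from 53.9 over 60.2 to 64.2 in submissive males, a log2 fold change of -0.046 (SE 0.0554). Its lowest value was that of dominant male 6 and its highest that of dominant male 1. Gabrb2 ran from 619.9 over 635 to 669 CPM and from 598 over 642 to 683, with a log2 fold change of -0.0027 (SE 0.0335), and Gabrd, the delta subunit, ran from 70.0 over 85.5 to 92.4 and from 76.1 over 81.3 to 91.3, with -0.017 (SE 0.0592). With quasi-likelihood tests in edgeR, adjusted after Benjamini and Hochberg over 14737 genes, none of the 7 members was called (adjusted p = 0.9999 for each), none had an unadjusted p under 0.05, and DESeq2 called none either. Over all genes tested in males 0% were called and 1.32% had an unadjusted p under 0.05 in edgeR and 0.807% in DESeq2. The 95% intervals of the 7 log2 fold changes lay between -0.16 and 0.17. Without dominant male 1 the fold changes were -0.016 for Gabra2, -0.016 for Gabra3, 0.0051 for Gabra4, 0.028 for Gabra5, -0.081 for Gabrb1, -0.000124 for Gabrb2 and 0.017 for Gabrd, and none was called. Leaving out 1 male at a time gave -0.081 to -0.0086 for Gabrb1.

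**Figure D2:**
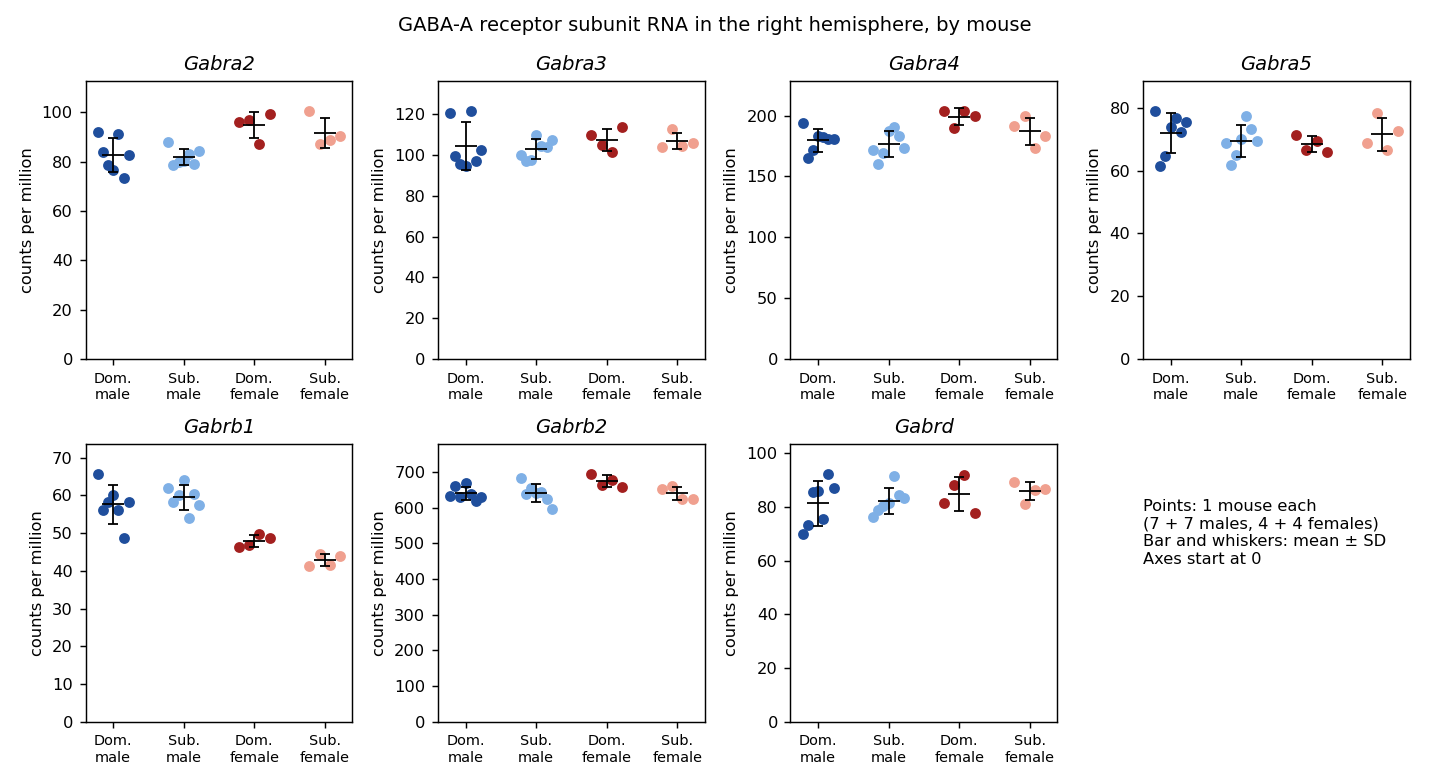
CPM of each subunit gene in every mouse (points), by group, with mean and SD (black), every axis starting at 0. The male groups overlap for all 7 genes, while the 4 dominant females (46.3 to 49.7 CPM) all lie above the 4 submissive females (41.2 to 44.4) for Gabrb1, and of the 14 males only dominant male 6 (48.7) lies within the female range.

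In females, Gabrb1 was the member that stood furthest apart by rank. The dominant females had 46.3, 46.7, 49.7 and 48.6 CPM and the submissive females of the same cages 41.2, 44.4, 41.6 and 43.8, so that the groups did not overlap and the dominant mouse was higher in 4 of 4 cages. The log2 fold change was 0.15 (SE 0.0452, 95% interval 0.060 to 0.25). It had an unadjusted p of 0.00286 and an adjusted p of 0.194 in edgeR over 14865 genes and did not pass the threshold of 0.05. Over the alternatives its fold change ran from 0.14 to 0.18 and its adjusted p from 0.157 to 0.995. Of the 15233 genes tested over all mice, 5.42% had groups that did not overlap between female ranks, and Gabrb1 was the 1 member among them.

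The other beta subunit showed the next smallest p. Gabrb2 had 696, 665, 679 and 658 CPM in dominant and 654, 660.4, 626 and 625 CPM in submissive females. It was higher in the dominant mouse in 4 of 4 cages, by 0.0099 to 0.12 on the log2 scale, but the groups overlapped, since 1 submissive female lay above the lowest dominant one. Its log2 fold change was 0.066 (SE 0.0299), with an adjusted p of 0.444 from edgeR. After removal of each library's trend of counts on gene length, the fold change of Gabrb2 was 0.019 with the replicate block. Gabra4 had 204, 189.5, 204 and 199.6 CPM in dominant and 192, 199, 173 and 183 CPM in submissive females. The dominant mouse was higher in 3 of 4 cages, with a log2 fold change of 0.084 (SE 0.0389) and an adjusted p of 0.457 from edgeR.

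The remaining 4 members showed no unadjusted p under 0.05 in females. Gabra2 had 96.1, 96.8, 87.2 and 99.3 CPM in dominant and 101, 87.2, 88.6 and 90.2 in submissive females, or 0.043 as a log2 fold change (SE 0.0476). Gabra3 had 109.9, 105, 102 and 114 CPM and 104, 113, 104 and 106, with 0.0033 (SE 0.0399). Both overlapped widely between the ranks. Gabra5 had 71.5, 66.7, 69.5 and 65.9 CPM in dominant and 68.7, 78.3, 66.5 and 72.7 in submissive females, with -0.073 (SE 0.0477), and Gabrd had 81.3, 88.0, 91.7 and 77.8 CPM and 89.3, 81.0, 86.3 and 86.7, with -0.026 (SE 0.0477). For each of these 4 the dominant mouse was the higher one in 2 of 4 cages.

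In sum over females, edgeR called 0 of 7 members by rank, and 3 (Gabrb1, Gabrb2 and Gabra4, all higher in dominant mice) had an unadjusted p under 0.05. Over all 14865 genes 0.0942% were called by edgeR and 10.5% had an unadjusted p under 0.05. DESeq2 called 0 members and found 2 with an unadjusted p under 0.05, where it called 0.424% of all genes and gave 6.88% an unadjusted p under 0.05. With the cage as a replicate block the Gabrb1 fold change was 0.15 (SE 0.0475) with an adjusted p of 0.210 from edgeR, and 1 member in place of 3 had an unadjusted p under 0.05. In that fit 1537 of 14865 genes had an unadjusted p under 0.05, against 1563 without the block. 

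Markers of brain regions and other cell types were set beside these values, and by rank in females edgeR called 0 genes of any of these lists. The summed level of 4 cortex markers was 170.3 to 193 CPM in dominant and 155 to 162 CPM in submissive females, with 2 of 4 genes, both higher in dominant mice, at an unadjusted p under 0.05. The 3 hippocampus markers summed to 32.28 to 34.5 and 29.7 to 32.28 CPM, with 1 such gene. The 4 thalamus markers (107.9 to 121 and 90.3 to 111 CPM, median log2 fold change 0.12) and the 6 striatum markers (407 to 449.6 and 376 to 443.7 CPM, median 0.074) were positive throughout, with 0 such genes. Lower in dominant females were the medians of the hypothalamus markers (-0.34 over 5 tested), the choroid plexus and ependyma markers (-0.27 over 4) and the olfactory bulb markers (-0.20 over 3), with 2, 3 and 1 genes at an unadjusted p under 0.05. Their sums were 23.0 to 50.5 CPM in dominant and 44.7 to 51.5 CPM in submissive females for hypothalamus, 677 to 835 and 649.6 to 980.4 CPM for choroid plexus and ependyma, and 7.47 to 10.7 and 8.44 to 15.5 CPM for olfactory bulb, whose marker Tbx21 was at 0 in some mice. The part of these markers in the subunit values was not tested.

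The median log2 fold change of the 7 members was 0.011 in males and 0.043 in females, and that of all genes tested was -0.0015 and -0.0020. The rank effects of the sexes were compared directly by the interaction of rank and sex over all 22 mice (females minus males). Of the members Gabrb1 had the largest interaction, 0.21 (SE 0.0818), with an unadjusted p of 0.0178 and an adjusted p of 0.999 in edgeR. No member was called, and 1 had an unadjusted p under 0.05, by edgeR and by DESeq2 alike, where 0% of all genes were called and 3.32% had an unadjusted p under 0.05 in edgeR and 2.8% in DESeq2. The others ran from -0.12 for Gabra5 to 0.075 for Gabrb2, which was 0.0062 after removal of the length trend. The rank effect of Gabrb1 was thus not shown to differ between the sexes.

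Rank was then compared within cages over both sexes, with the 11 cages as a block. The largest member effect was that of Gabra4, 0.050 (SE 0.0280, unadjusted p = 0.0892), which was higher in the dominant mouse in 4 of 7 male and 3 of 4 female cages. Gabrb1 had 0.026 (SE 0.0402) there, or 0.0036 to 0.060 on leaving out 1 cage, with the dominant male higher in 3 of 7 cages. No member was called or had an unadjusted p under 0.05, by edgeR or by DESeq2, and of all genes 0% were called and 2.78% had an unadjusted p under 0.05 in edgeR and 0.565% in DESeq2.

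**Figure D3:**
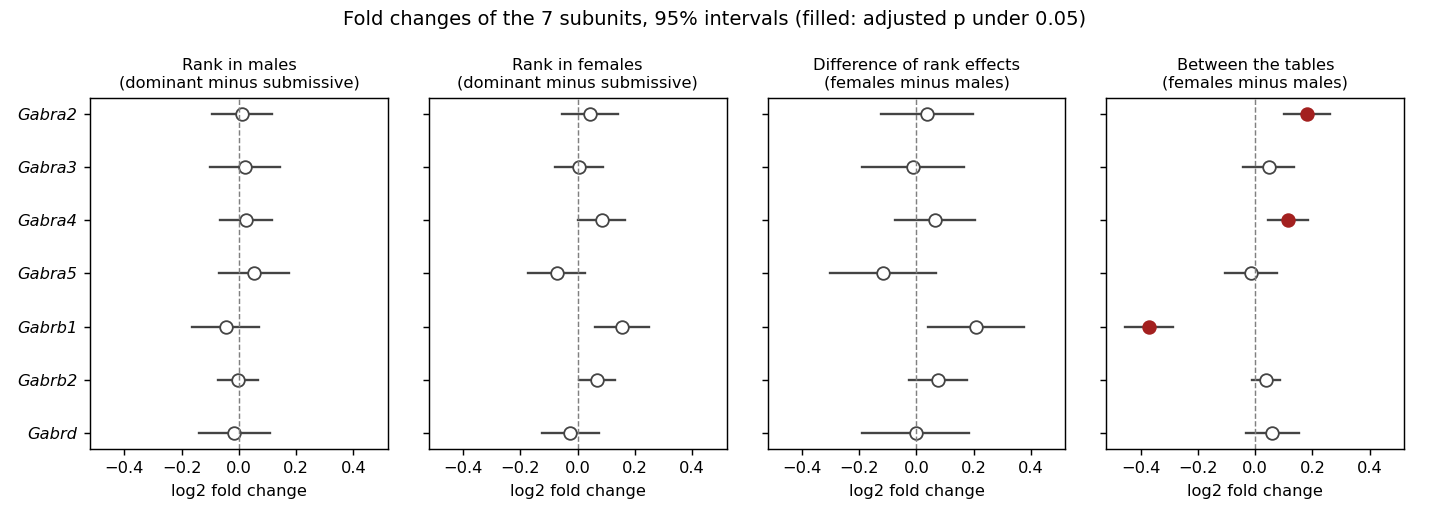
Log2 fold changes of the 7 subunit genes (points) with 95% intervals (lines) for rank in males, rank in females, the difference of the 2 rank effects, and females against males. The filled points, at an adjusted p under 0.05, are Gabra2 (0.18), Gabra4 (0.12) and Gabrb1 (-0.37) between the tables, and no point is filled in the 3 rank panels.

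The largest differences in these subunits lay between the male and the female table. Gabrb1 ran from 48.7 over a median of 58.3 to 65.8 CPM in the 14 males and from 41.2 over 45.3 to 49.7 CPM in the 8 females. Only dominant male 6 lay within the female range. The log2 fold change, females over males, was -0.37 (SE 0.0412, adjusted p = 1.08e-07 from edgeR), so that females had 0.773 times the male level. Its p was number 268 from the smallest over 15233 genes. The tests between the tables left cage out and took cage mates as independent mice.

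The cluster neighbours of Gabrb1 on chromosome 5 went the other way. Gabra2 ran from 73.5 over 81.5 to 91.9 CPM in males and from 87.2 over 93.1 to 101 CPM in females, a log2 fold change of 0.18 (SE 0.0392, adjusted p = 0.000696). Gabra4 ran from 161 over 181 to 194 CPM in males and from 173 over 196 to 204 CPM in females, with 0.12 (SE 0.0339, adjusted p = 0.00922 from edgeR). Both overlapped between the tables, and both rose in females. Without dominant male 1 the fold changes were -0.36 for Gabrb1, 0.18 for Gabra2 and 0.11 for Gabra4, and all 3 were called. Without submissive female 2 the Gabra4 fold change was 0.089 and its adjusted p was 0.0503, and over all alternatives the adjusted p of Gabra4 ran from 0.00646 to 0.0503.

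The other 4 members did not pass the threshold between the tables. Gabra3 differed by 0.046 (SE 0.0432), Gabrd by 0.060 (SE 0.0455) and Gabrb2 by 0.037 (SE 0.0243) on the log2 scale, and Gabra5 by -0.015 (SE 0.0447), with means of 70.7 ± 5.73 CPM (SD, n = 14) in males and 70.0 ± 4.13 (SD, n = 8) in females. The Gabrb2 difference was 0.14 with an adjusted p of 8.38e-05 in edgeR after removal of each library's trend on gene length, and over all alternatives its adjusted p ran from 4.39e-05 to 0.612. The members called were thus 3 of 7, with 2 higher and 1 lower in females, where 36.2% of all 15233 genes were called, 18.4% higher and 17.8% lower. No member, and 6.11% of all genes, had tables that did not overlap. DESeq2 called 3 members too, where it called 35.5% of all genes and gave 43.6% an unadjusted p under 0.05. The summed level of 5 neuronal markers was 3591 to 4171 CPM in males and 4243 to 4453 CPM in females, and that of 4 astrocyte markers was 1267 to 1636 and 1305 to 1506 CPM. The median log2 fold change between the tables was 0.050 for the neuronal and -0.098 for the astrocyte markers. Among regions it was 0.20 for cerebellum, 0.067 for cortex, 0.064 for thalamus, 0.0047 for striatum, -0.017 for hypothalamus, -0.16 for hippocampus and -0.26 for olfactory bulb markers. The part of these markers in the subunit differences was not tested.

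Whether cage mates shared a level was asked by a test of the cage terms beside rank. In males Gabra5 had the smallest p of the members. Its cage means ran from 61.7 CPM in male cage 2, where the dominant mouse had 61.6 and the submissive one 61.9, to 77.0 CPM in male cage 5, with 76.8 and 77.3. The mean gap between the 2 mice of a cage was 3.09 CPM. In male cage 1 the mates lay apart, at 79.0 CPM in dominant male 1 and 68.9 CPM in its submissive cage mate.

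The Gabra5 cage test gave an unadjusted p of 0.00347 and an adjusted p of 0.0541 in edgeR. Without male cage 1, which holds dominant male 1, the adjusted p was 0.0125 in edgeR. In that fit 1841 of 14738 genes were called, against 868 of 14737 with all male cages. Over all alternatives the adjusted p of Gabra5 ran from 0.0125 to 0.237. Gabra2 and Gabra4 had unadjusted p-values of 0.0321 and 0.0469 for cage. Of the 7 members 0 were called and 3 had an unadjusted p under 0.05, where 5.89% of all genes were called and 22.3% had an unadjusted p under 0.05. DESeq2 called 0 members and found 1 with an unadjusted p under 0.05, where it called 6.53% of all genes and gave 12.6% an unadjusted p under 0.05.

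In females the cage means of Gabra5 ran from 68.0 CPM in cage 3 to 72.5 CPM in cage 2, and the mates differed by 6.03 CPM on average. No member was called for cage in females or had an unadjusted p under 0.05, by edgeR or by DESeq2, where 0.074% of all genes were called and 5.11% had an unadjusted p under 0.05 in edgeR, and 0.0336% and 0.639% in DESeq2. The library names give 2 female cages a number and 2 a Gr label. Whether that label marks regrouped intermediate females is not stated. No member was called between these kinds. The fold change of Gabra2 there, Gr label over number, was -0.060 (SE 0.0466), and it ran from -0.0050 without female cage 3 to -0.12 without female cage 4. Of all genes 0.00673% were called and 5.54% had an unadjusted p under 0.05 in that comparison in edgeR, and 0.0135% and 2.15% in DESeq2, and no member had one by either tool.

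**Figure D4:**
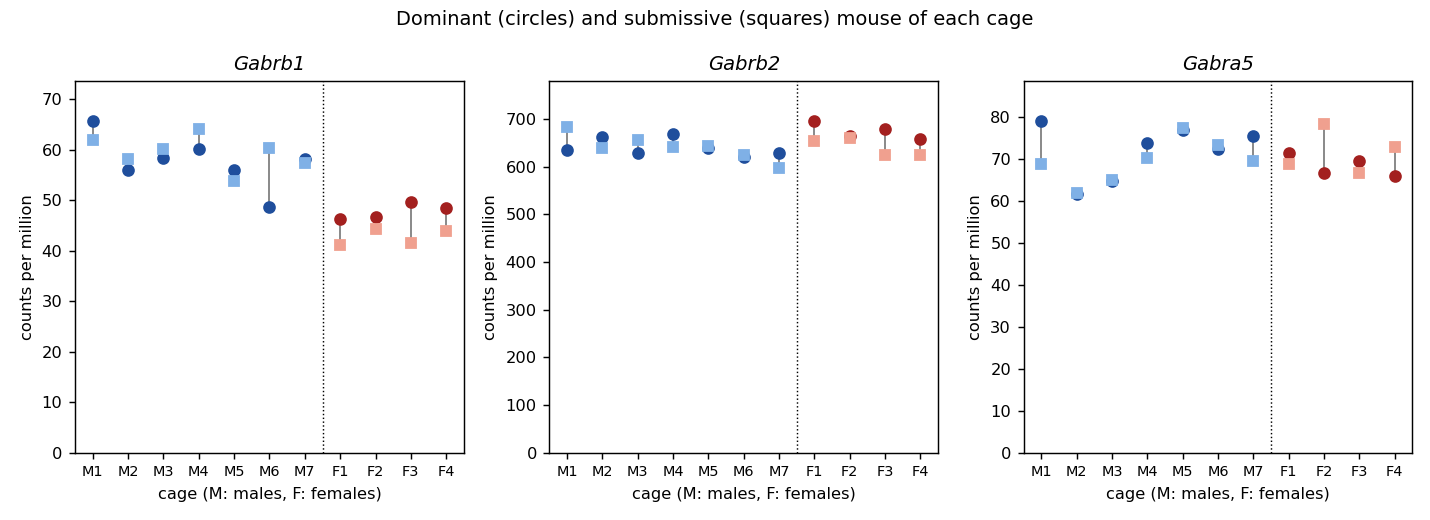
CPM of Gabrb1, Gabrb2 and Gabra5 in the dominant (circle) and the submissive (square) mouse of each cage, 7 male cages left of the dotted line and 4 female cages right of it, axes from 0. For Gabrb1 and Gabrb2 the circle is above the square in all 4 female cages, and for Gabra5 the mates of male cages 2 and 5 nearly coincide at 61.7 and 77.0 CPM.

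The members were also compared with one another from mouse to mouse, on log2 CPM, over 21 pairs in each sex. Male cages 1 to 4 and 5 to 7, which follow each other in the library names, were also taken separately. In the 14 males Gabra4 and Gabra5 varied together (Pearson r = 0.91, permutation p = 1e-05, the smallest that 100000 permutations can give, adjusted over the pairs 0.00021; Spearman rho = 0.88, permutation p = 9e-05). The r was 0.85 without the 2 mice farthest from the median of Gabra4, 0.93 in cages 1 to 4 and 0.82 in cages 5 to 7, and 0.90 without dominant male 1. Both were lowest in the 2 mice of male cage 2. In the 8 females r was 0.30 for this pair (exact permutation p = 0.461). Cage mates are not fully independent, so these p-values treat the mice as more independent than they may be.

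Of the other male pairs, 2 passed 0.05. Gabra2 and Gabra3 had r = 0.77 (permutation p = 0.00129, adjusted 0.0135) and rho = 0.79 (permutation p = 0.00131, adjusted 0.0138), with 0.72 in cages 1 to 4 and 0.92 in cages 5 to 7. Gabra2 and Gabrd had r = -0.71 (permutation p = 0.00422, adjusted 0.0295) and rho = -0.64 (permutation p = 0.0164, adjusted 0.115), with -0.88 and -0.79 in these cages. Without the 2 mice farthest from the median of Gabra2, r was 0.45 and -0.52. Without dominant male 1, which had the highest Gabra2 and the lowest Gabrd of all males, r was 0.69 and -0.61, with unadjusted permutation p-values of 0.00973 and 0.0276 and adjusted ones of 0.102 and 0.193 over 13 mice, so that neither pair passed 0.05 after adjustment.

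In the 8 females Gabra3 and Gabrd ran opposite (r = -0.97, exact permutation p = 0.000298, adjusted 0.00625; rho = -0.93, exact permutation p = 0.00223), and r was -0.96 without the 2 mice farthest from the median of Gabra3. In males r was -0.48 for that pair (permutation p = 0.0836), and -0.26 without dominant male 1 (permutation p = 0.397). It was 0.036 without the 2 males farthest from the median of Gabra3. The male r was -0.64 in cages 1 to 4, which hold dominant male 1, and -0.92 in cages 5 to 7. Gabra4 and Gabrb2 had r = 0.87 in females (exact permutation p = 0.00372, adjusted 0.0391) and rho = 0.81 (exact permutation p = 0.0218, adjusted 0.229), with r = 0.64 without the 2 farthest mice. In males this pair had r = -0.16, with -0.17 in cages 1 to 4 and 0.90 in cages 5 to 7. The difference of r between the sexes was not tested.

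**Figure D5:**
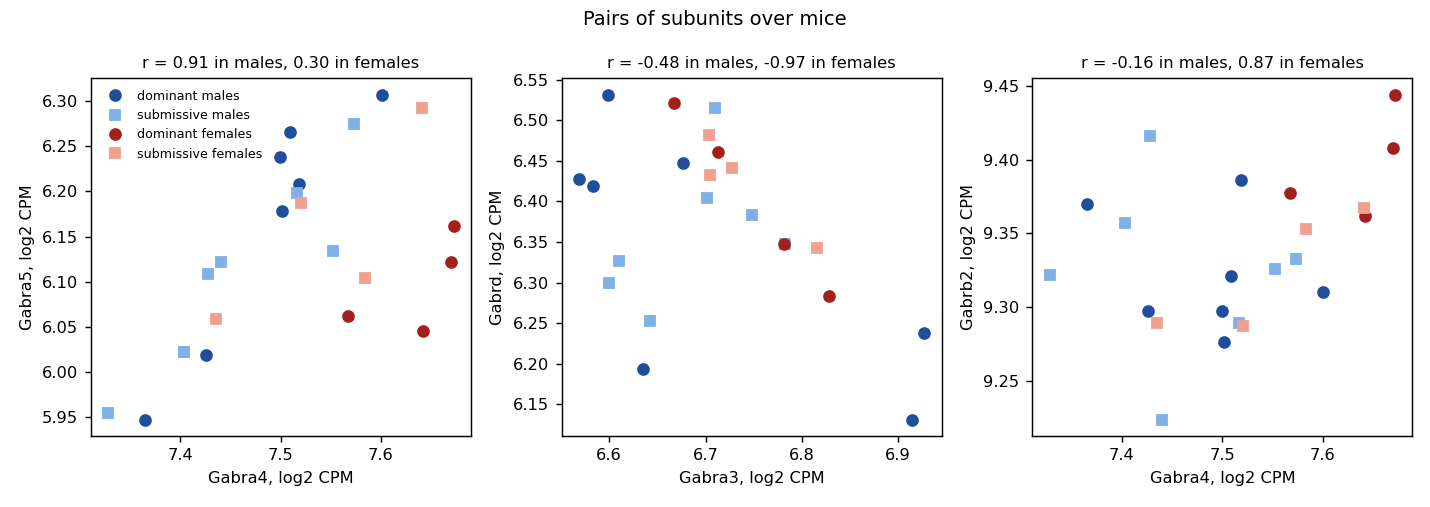
Log2 CPM of 3 pairs of subunit genes, 1 point per mouse, circles for dominant and squares for submissive mice, blue for males and red for females. Gabra4 and Gabra5 follow each other in males (r = 0.91), and Gabra3 and Gabrd run opposite in females (r = -0.97). Gabra4 and Gabrb2 have r = 0.87 in females and -0.16 in males, a difference that was not tested.

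The genes whose log2 CPM was most like that of each member were sought over 22 mice after the 4 group means were subtracted, among 10183 genes. They are descriptions of shared variation with n = 22 and common library effects. For Gabra5 they were Mal2 (r = 0.93 over all mice, 0.94 in males and 0.91 in females) and Plekha2 (0.92, 0.97 and 0.74). For Gabra3 they were Nrsn1 (0.92, 0.93 and 0.85) and Aplp1 (0.91, 0.94 and 0.68). Gabra4 was most like Atp2b1, a plasma membrane calcium pump (0.90, 0.87 and 0.98), and Fhl2 (0.89, 0.88 and 0.93). Gabrb1 was most like Csmd1 (0.89, 0.89 and 0.87) and Ptprt (0.87, 0.92 and 0.32), and Gabrb2 like Usp9x, a deubiquitinase (0.87, 0.85 and 0.94), and Chl1, a cell adhesion molecule (0.86, 0.85 and 0.91). Gabra2 was most like Reps2 (0.87, 0.89 and 0.88) and Alg2 (0.78, 0.77 and 0.81), and Gabrd like Pdcl (0.85, 0.85 and 0.84) and Tuba8, a tubulin (0.83, 0.86 and 0.72).

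The wider GABA system was followed in 4 lists of 47 genes, of which 43 were tested. By rank in males 0 of 43 genes were called and 0 had an unadjusted p under 0.05 in edgeR, with Nsf (0.039, SE 0.0384) and Gphn, the scaffold gephyrin (-0.058, SE 0.0384), at the smallest p in each direction. By rank in females edgeR called 0, while 7 higher and 3 lower genes had an unadjusted p under 0.05, where 6.43% of all genes were higher and 4.08% lower at that level. Shisa7, a GABA-A receptor auxiliary protein, had the smallest p of the higher ones (0.25, SE 0.0537, adjusted p = 0.0867 from edgeR) and Hap1, a trafficking protein, that of the lower ones (-0.12, SE 0.0420, unadjusted p = 0.0109). DESeq2 called 2 of 38 genes that it adjusted, Nlgn2, the neuroligin of inhibitory synapses, and Shisa7, both higher in dominant females, where it called 0.424% of all genes. Neither of these rank comparisons called a transporter or a synthetic enzyme of GABA by either tool.

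The interaction called 0 of 43 genes by either tool, with 1 at an unadjusted p under 0.05, where 3.32% of all genes had one in edgeR, and the smallest p belonged to Trak1 (0.15, SE 0.0646) and Slc6a11 (-0.13, SE 0.0655) in their directions. Over 11 cages 0 were called or under an unadjusted p of 0.05 by either tool, and Kctd16 (0.093, SE 0.0455) and Slc32a1, the vesicular GABA transporter (-0.062, SE 0.0386), had the smallest p. In males 1 of 43 genes, Clptm1, was called for cage, and 11 had an unadjusted p under 0.05, where 5.89% and 22.3% of all genes did. For cage in females edgeR called 0 of 43, with 3 at an unadjusted p under 0.05, where 5.11% of all genes had one.

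Between males and females 21 of the 43 genes were called, 14 higher and 7 lower in females, where 36.2% of all genes were called. Of the 8 other subunits tested 3 were called higher and 1 lower in females, the lower one being Gabrq (-0.30), the theta subunit. Of the 8 genes of GABA synthesis and transport 1 was called higher and 3 lower. The GABA transporter of glia, Slc6a11 (-0.49), and the GABA-degrading transaminase Abat (-0.44) fell in females, while Aldh5a1 (0.13), the next enzyme of that route, rose. Of the 20 anchoring and trafficking genes 8 were called higher and 2 lower. Trak1 (0.30), Iqsec3 (0.26), Ubqln1 (0.23), Hap1 (0.16), Rdx (0.15), Clptm1 (0.15), Gabarapl2 (0.15) and Gabarapl1 (0.13) rose and, of the lower genes, Shisa7 (-0.28) fell. Of the GABA-B and chloride genes, Slc12a5, the neuronal chloride exporter (0.18), and Kctd12 (0.15) rose and Kctd16 (-0.38) fell. All values in this paragraph are log2 fold changes, females over males, from edgeR with an adjusted p of at most 0.0346.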

How the data were processed

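RNA from the right brain hemisphere of 22 mice was sequenced after ribosomal depletion, as stranded single-end total RNA. The submitters' processing notes name cutadapt 1.15, STAR 2.6.0a and featureCounts 1.6.2 on mm10, and the methods add bbduk for quality trimming. The authors deposited raw counts of reads per gene. Groups came from the sample titles, 7 and 7 males and 4 and 4 females. The members and the gene lists were chosen with earlier results of these data known.

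Tests were edgeR 4.0.16 quasi-likelihood tests (R 4.3.3) on these deposited counts with TMM factors, a minimum count of 10, a minimum total of 15 and Benjamini-Hochberg adjustment over all genes, at a threshold of 0.05. CPM and log2 CPM (prior count 2) used TMM factors over all 22 mice. Permutation tests were two-sided (SciPy 1.17.1, Python 3.11.15). The alternatives were DESeq2 1.42.0, its size factors, no filter, removal of trends on gene length or GC content (span 0.3), a replicate block, a joint fit and leaving out each mouse or cage. The GC alternatives were chosen after seeing the data.

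Mice of the same number shared a cage and were killed together, as the library names and the methods state. Across genes, the deviations of 2 cage mates from the means of their groups correlated at 0.157 on average in males and 0.0211 in females, against -0.0261 and -0.00703 for 42 male and 12 female pairs from different cages. Single male pairs ran from -0.026 to 0.24 for cage mates and from -0.34 to 0.36 for the others. In females they ran from -0.022 to 0.047 and from -0.056 to 0.046, so the ranges overlapped in both sexes.

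The tests were tested on simulated counts with known changes, where the share of false calls was above the threshold for most comparisons and sizes of change, furthest in the cage tests, and most of the smaller changes by rank were missed. The precision of each fold change is given by its SE and 95% interval, and its p-value sets it against the spread between mice. The main rank tests within each sex left cage out. Named genes followed a rule, namely all members, list genes with an adjusted p under 0.05 or otherwise the smallest p in each direction, and the 2 genes most correlated with each member among those with a mean of at least 10 CPM. The values of some list genes are not reported here, though the counts over the lists include them.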

Additional observations from a re-analysis of the deposited data

How the results depend on the processing

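Of 952 alternative values of single members, 896 kept their direction and their side of the threshold, 52 reversed, 1 lost its call and 3 gained one, and each reversal was of a value that was not called. Removal of the length trend gave 0.014 for Gabrb2 by rank in males (0.015 with the replicate block), -0.00072 for Gabra3 by rank in females (-0.00086 with the block) and 0.020 for Gabrd in the interaction, and removal of the GC trend gave -0.0062 for Gabra3 by rank in females and 0.014 for Gabra5 between the tables. The replicate block changed no call of a member, with 0 called by rank in either sex and in the interaction, as did dropping it over 11 cages, while genes called by rank in females went from 14 to 36. That count was 63 with DESeq2, 84 without the filter, 23 without the GC trend, 8 with the block and the length trend removed, and 0 without the length trend or in the joint fit. Leaving out 1 mouse gave 7, 77, 1 and 3 for dominant females 1 to 4 and 0, 27, 0 and 3 for submissive females 1 to 4. Gabrb2 was called between the tables without the length trend (0.14) and without both trends (0.14). Leaving out 1 mouse or cage moved most member values by rank and for Gr labels, none of them called, by more than 1.5 times. The ranges by rank in males were -0.016 to 0.038 for Gabra2, -0.020 to 0.042 for Gabra3, 0.0021 to 0.043 for Gabra4, 0.025 to 0.085 for Gabra5, -0.081 to -0.0086 for Gabrb1, -0.019 to 0.014 for Gabrb2 and -0.049 to 0.017 for Gabrd, and by rank in females 0.018 to 0.089 for Gabra2, -0.023 to 0.030 for Gabra3, 0.050 to 0.11 for Gabra4, -0.10 to -0.029 for Gabra5, 0.14 to 0.17 for Gabrb1, 0.050 to 0.079 for Gabrb2 and -0.064 to 0.013 for Gabrd. In the interaction they were 0.012 to 0.087 for Gabra2, -0.037 to 0.030 for Gabra3, 0.032 to 0.10 for Gabra4, -0.15 to -0.070 for Gabra5, 0.17 to 0.24 for Gabrb1, 0.060 to 0.091 for Gabrb2 and -0.042 to 0.037 for Gabrd, over 11 cages 0.0094 to 0.037 for Gabra2, -0.011 to 0.036 for Gabra3, 0.031 to 0.061 for Gabra4, -0.011 to 0.031 for Gabra5, 0.0036 to 0.060 for Gabrb1, 0.016 to 0.039 for Gabrb2 and -0.037 to 0.0055 for Gabrd, and for Gr labels -0.12 to -0.0050 for Gabra2, -0.070 to 0.026 for Gabra3, -0.063 to -0.032 for Gabra4, -0.076 to -0.028 for Gabra5, 0.0091 to 0.070 for Gabrb1, -0.062 to -0.038 for Gabrb2 and -0.043 to 0.066 for Gabrd. Members called for cage in males numbered 0 to 1, the 1 being Gabra5 without male cage 1, where 1841 of 14738 genes were called. Pairs of members past 0.05 numbered 3 in males, 2 by Spearman's rho and 1 without dominant male 1, and 2 in females and 1 by Spearman's rho. The cause was not tested. With 4 females a rank, the 95% interval of the Gabrb1 fold change reached from 0.060 to 0.25, and with 7 males a rank it reached from -0.16 to 0.070.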
